A study of Mus musculus with 2 samples.

Results

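Poteg, Gm1698, Gm35229 and Otop3 are 4 of the 32227 genes in the deposited gene table of a single-nucleus RNA-seq study of mouse retina. They were chosen by their UMI counts, which were almost absent from the Cre- library and raised in the Tet tcKO library, so the difference between the libraries is given below as a description. Whole retinas of C57 BL/6J mice were collected at postnatal day 21. The Cre- library came from control animals without the Cre transgene, whose genotype is labelled WT, and whether they carried floxed Tet alleles was not clear from the sources. The Tet tcKO library came from animals with loxP alleles of Tet1, Tet2 and Tet3 and the Chx10-Cre-GFP transgene, which drives Cre in retinal progenitor cells and can act as a mosaic. Nuclei of 2 dissociation pools, each from several animals, entered the reaction of each genotype, but the pool of a nucleus is not recorded. Each genotype was thus 1 library, no value below could be checked against replicates, and all 95% intervals cover counting error only. The Cre- library held 7357 nuclei and 11510585 unique molecular identifiers (UMIs, each standing for a captured transcript molecule). There were 6766 nuclei with 16590747 UMIs in the Tet tcKO library, and 1 cell barcode occurred in both. Levels are UMIs of a gene per 1000000 UMIs of the population (CPM).

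The TET enzymes oxidise methylated cytosines, mostly where a cytosine precedes a guanine (a CpG), which is the first step of active DNA demethylation. Methylated CpGs in promoters are widely associated with silent genes, and genes of the germline are a well-known class kept silent in this way in somatic tissue. Poteg encodes an ankyrin repeat protein of the POTE family, which is named for its expression in human prostate, ovary, testis and placenta. Otop3 encodes an otopetrin, a family of proton channels whose member Otop1 serves sour taste. Gm1698 and Gm35229 are annotated as long non-coding RNAs, and no function is given for them here.

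The 4 genes lie at 3 loci of the GRCm39 assembly, all on the plus strand. Poteg (ENSMUSG00000063932, named Ankrd69 in GENCODE vM39) spans chromosome 8 from 27937698 to 27985200. Gm1698 (ENSMUSG00000074404) spans chromosome 8 from 28094379 to 28110480, starting 109 kb beyond the end of Poteg. A longer coding gene on the same strand, Gm45861, runs from 27937128 to 28110945 and covers both. Gm45861 was not in the deposited gene table, so reads of a joint transcript could not be told apart from those of Poteg or Gm1698. Gm35229 (ENSMUSG00000117611) spans chromosome 17 from 84244745 to 84264978. It overlaps Gm55753 on the same strand and Gm41639 and Gm41638 on the other, and of these Gm41639 held 4 UMIs in Cre- and 10 in Tet tcKO while Gm41638 held 0 in both. Otop3 (ENSMUSG00000018862) spans chromosome 11 from 115225557 to 115237753 and overlaps Gm74278 on the minus strand. The sources used here do not say whether reads were counted by strand.

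The promoter windows are shown because CpGs are where the deleted enzymes act. Each window holds 250 bases before and 50 bases after the annotated gene start in GRCm39, written 5′ to 3′ with every CpG in capitals.
Poteg, chr8:27937448-27937747, plus strand: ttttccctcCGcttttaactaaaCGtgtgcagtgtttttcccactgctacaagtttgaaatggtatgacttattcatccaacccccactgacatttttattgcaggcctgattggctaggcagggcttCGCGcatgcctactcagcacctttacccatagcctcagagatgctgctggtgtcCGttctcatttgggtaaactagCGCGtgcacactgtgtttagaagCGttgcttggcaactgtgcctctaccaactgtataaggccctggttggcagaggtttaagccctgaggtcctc
Gm1698, chr8:28094129-28094428, plus strand: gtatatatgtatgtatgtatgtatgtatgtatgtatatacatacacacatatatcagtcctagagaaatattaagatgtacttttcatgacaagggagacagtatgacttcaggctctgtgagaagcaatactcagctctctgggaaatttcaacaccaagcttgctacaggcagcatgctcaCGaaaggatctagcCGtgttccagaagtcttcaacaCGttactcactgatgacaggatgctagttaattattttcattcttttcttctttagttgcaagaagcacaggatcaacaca
Gm35229, chr17:84244495-84244794, plus strand: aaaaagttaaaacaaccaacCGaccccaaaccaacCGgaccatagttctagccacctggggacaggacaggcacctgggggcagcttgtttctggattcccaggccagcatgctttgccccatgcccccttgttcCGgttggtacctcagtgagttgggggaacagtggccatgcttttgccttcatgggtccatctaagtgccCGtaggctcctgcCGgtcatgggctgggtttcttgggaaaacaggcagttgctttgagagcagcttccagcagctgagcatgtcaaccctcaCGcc
Otop3, chr11:115225307-115225606, plus strand: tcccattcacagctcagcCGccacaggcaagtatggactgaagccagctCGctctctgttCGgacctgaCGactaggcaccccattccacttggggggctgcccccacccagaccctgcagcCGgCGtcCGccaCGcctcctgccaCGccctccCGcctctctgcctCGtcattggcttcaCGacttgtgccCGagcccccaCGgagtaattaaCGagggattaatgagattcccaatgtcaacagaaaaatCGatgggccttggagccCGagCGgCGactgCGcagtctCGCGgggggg
The Otop3 window held 22 CpGs, the Poteg window 8, the Gm35229 window 6 and the Gm1698 window 3. Over 31668 promoter windows of the same length the median was 6, with 8 for coding genes and 4 for long non-coding RNAs. Otop3 thus had a CpG-rich window, with fewer CpGs in 85.6% of all windows, while the share with fewer was 57.4% for Poteg, 48.5% for Gm35229 and 26.8% for Gm1698. The 4 windows had no common CpG density, and methylation itself was not measured in these libraries. TAATCC, a core sequence bound by the photoreceptor homeobox factors CRX and OTX2, was searched on both strands. It occurred in the Otop3 window on the strand opposite the gene and in none of the other windows. On the gene strand the match reads GGATTA, whose first base lies 32 bases before the gene start. Of all windows, 8.89% held it, so the match is a description of these letters alone.

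Over all nuclei, Poteg gave 25 UMIs in Cre- and 1269 in Tet tcKO, or 2.17 CPM (95% interval 1.41 to 3.21) and 76.5 CPM (72.3 to 80.8). Gm1698 gave 15 and 1392 UMIs, or 1.30 CPM (0.729 to 2.15) and 83.9 CPM (79.6 to 88.4). Gm35229 gave 6 and 1069 UMIs, or 0.521 CPM (0.191 to 1.13) and 64.4 CPM (60.6 to 68.4). None of these 3 genes exceeded 25 UMIs in Cre-, and each exceeded 1000 in Tet tcKO. Otop3, the proton channel gene, was the member with the clearest Cre- signal, at 86 UMIs or 7.47 CPM (5.98 to 9.23), against 1771 UMIs or 107 CPM (101.8 to 111.8) in Tet tcKO. The log2 ratio of Tet tcKO over Cre- was 5.14 (4.57 to 5.77) for Poteg, 6.01 (5.28 to 6.85) for Gm1698, 6.95 (5.82 to 8.40) for Gm35229 and 3.84 (3.52 to 4.17) for Otop3. These ratios stood 8th, 4th, 2nd and 16th from the top among the 11158 genes at 10 CPM or more in a library.

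All 4 genes passed the 10 CPM minimum, through their Tet tcKO level alone, and all 4 were at least 2-fold higher in Tet tcKO, as their choice required. Over all 11158 genes, 355 (3.18%) were at least 2-fold higher and 277 (2.48%) at least 2-fold lower. That split depended on scaling, with 276 higher and 356 lower under the trimmed mean of M values, which lowers every log2 ratio by 0.10 and leaves the members' ratios within their intervals. The plot of all genes against their level shows where the members lie.

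**Figure D1:**
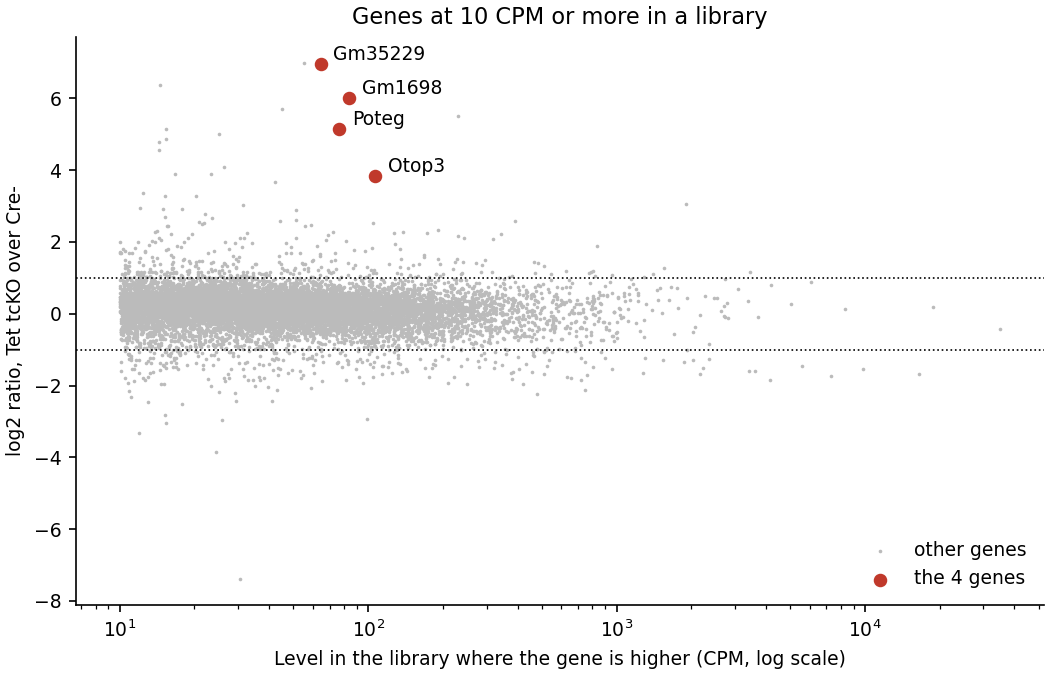
Each point is a gene that reached 10 CPM in a library, with its level in the library where it is higher (CPM, log axis) against its log2 ratio of Tet tcKO over Cre-. Red points mark Poteg, Gm1698, Gm35229 and Otop3, at log2 ratios from 3.84 to 6.95, and dotted lines mark a 2-fold difference.

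The signal was spread over many nuclei rather than held by a few. In Tet tcKO, Poteg was detected in 990 nuclei (14.6%, 13.8 to 15.5), Gm1698 in 1110 (16.4%, 15.5 to 17.3), Gm35229 in 938 (13.9%, 13.0 to 14.7) and Otop3 in 1460 (21.6%, 20.6 to 22.6). No Cre- nucleus held more than 1 UMI of any of them. In Tet tcKO the most in a nucleus was 7 UMIs for Poteg, 9 for Gm1698, 3 for Gm35229 and 6 for Otop3. Nuclei with 3 or more UMIs numbered 57 for Poteg, 55 for Gm1698, 14 for Gm35229 and 46 for Otop3. Median depth was 1107 UMIs per nucleus in Cre- and 1836.5 in Tet tcKO, and deeper nuclei more often show a UMI of a gene at the same CPM.

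The cell classes below are the authors' annotation, and their names were checked against marker lists. A cluster went against its name where markers of another class outnumbered its own among its 10 leading genes. That was so for 4 of 9 bipolar clusters (22, 35, 39 and 41), 1 of 9 cone clusters (11) and 2 of 14 rod clusters, and for no amacrine, retinal ganglion cell (RGC), horizontal or Müller glia cluster. Passing does not require a marker of the own class, and 2 of 5 amacrine clusters (12 and 27), 2 of the cone clusters that passed (46 and 52), 1 of the bipolar clusters that passed (43) and all 3 Müller glia clusters had none among those genes. Of the 14 rod clusters 10 had none, including the 2 that went against the name. Clusters 22, 35, 39 and 41 had the cone channel gene Cngb3 and no bipolar marker among those genes, and Poteg itself was among them in all 4. Cngb3 was the only cone marker there, so each of these calls rested on 1 cone marker. Cluster 35 also had the amacrine marker Tfap2a among those genes. Cluster 11, with the rod gene Pde6a and no cone marker, contained 264 of 265 cone-annotated nuclei of Cre-. Cone-annotated nuclei of Tet tcKO were in clusters 46, 48 and 50 to 55. Cone and bipolar levels are therefore given for each library by annotation, without a comparison between libraries within the name.

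Within the Tet tcKO library, where most transcripts of each gene lay was not part of the choice. Of 1649 bipolar-annotated nuclei, 1220 were in clusters 22, 35, 39 and 41, whose leading genes went against the name, and 429 in clusters that passed, nearly all in 42 and 43. Levels under the bipolar name are therefore given by cluster number. Poteg stood at 167.5 CPM (154 to 182) in clusters 22, 35, 39 and 41, at 83.8 CPM (67.2 to 103.3) in the bipolar-annotated clusters that passed and at 69.98 CPM (64.1 to 76.3) in cone-annotated nuclei. The last 2 of these intervals overlapped, so Poteg was separated from its cone level only in clusters 22, 35, 39 and 41. The overlap does not show equal levels, and cluster 43, which passed, stood at 92.3 CPM (72.6 to 115.7). The split is not independent of Poteg, which was itself among the leading genes of each bipolar-annotated cluster that went against the name. Gm1698 was also among those of clusters 22 and 35. Gm35229, Otop3 or both were among those of cone-annotated clusters 48, 50, 51 and 53 to 55. The same limit thus holds for the levels of these genes below. Summed bipolar markers ran from 1380 to 3795 CPM in clusters 22, 35, 39 and 41 and stood at 3981 and 8044 CPM in clusters 43 and 42. Summed cone markers ran from 5307 to 13755 CPM in the former and stood at 4721 and 3556 CPM in clusters 43 and 42. Cluster 43, with 275 of the 429 nuclei in clusters that passed, thus had more cone than bipolar marker transcript. Amacrine cells had 24.3 CPM (18.4 to 31.5) and RGCs 10.8 CPM (6.84 to 16.2) of Poteg, but amacrine cluster 23 supplied 34 of 57 amacrine UMIs and the other amacrine clusters of 50 or more nuclei, at 7.75 to 14.1 CPM, lay within the RGC interval. Horizontal cells (63.0 CPM, 25.3 to 129.9) and Müller glia (46.9 CPM, 18.9 to 96.6) rested on 7 UMIs each and could not be separated from cones.

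Gm1698, its neighbour on chromosome 8, stood at 124 CPM (113 to 137) in clusters 22, 35, 39 and 41, at 68.6 CPM (53.7 to 86.4) in the bipolar-annotated clusters that passed and at 106 CPM (98.8 to 114) in cone-annotated nuclei. Its cone level thus lay above that of the bipolar clusters that passed and overlapped that of the others. Amacrine cells had 25.2 CPM (19.2 to 32.5) and RGCs 19.7 CPM (14.2 to 26.6) of Gm1698, whose intervals overlapped.

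Gm35229 and Otop3 were higher in cone-annotated nuclei than in either set of bipolar-annotated clusters. Gm35229 stood at 102 CPM (94.98 to 109.7) in cone-annotated nuclei, 65.96 CPM (57.6 to 75.2) in clusters 22, 35, 39 and 41, 34.3 CPM (24.02 to 47.5) in the bipolar-annotated clusters that passed, 12.8 CPM (8.64 to 18.3) in amacrine and 6.56 CPM (3.59 to 11.01) in RGC nuclei. Otop3 stood at 174 CPM (165 to 184) in cone-annotated nuclei, 82.7 CPM (73.4 to 93.0) in clusters 22, 35, 39 and 41 and 58.1 CPM (44.5 to 74.7) in the bipolar-annotated clusters that passed. Amacrine cells had 28.2 CPM (21.8 to 35.8) and RGCs 30.9 CPM (23.9 to 39.4) of Otop3, which were not separated. Cone-annotated nuclei held 70.7% of the Gm35229 and 72.7% of the Otop3 UMIs, from 44.6% of all UMIs.

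**Figure D2:**
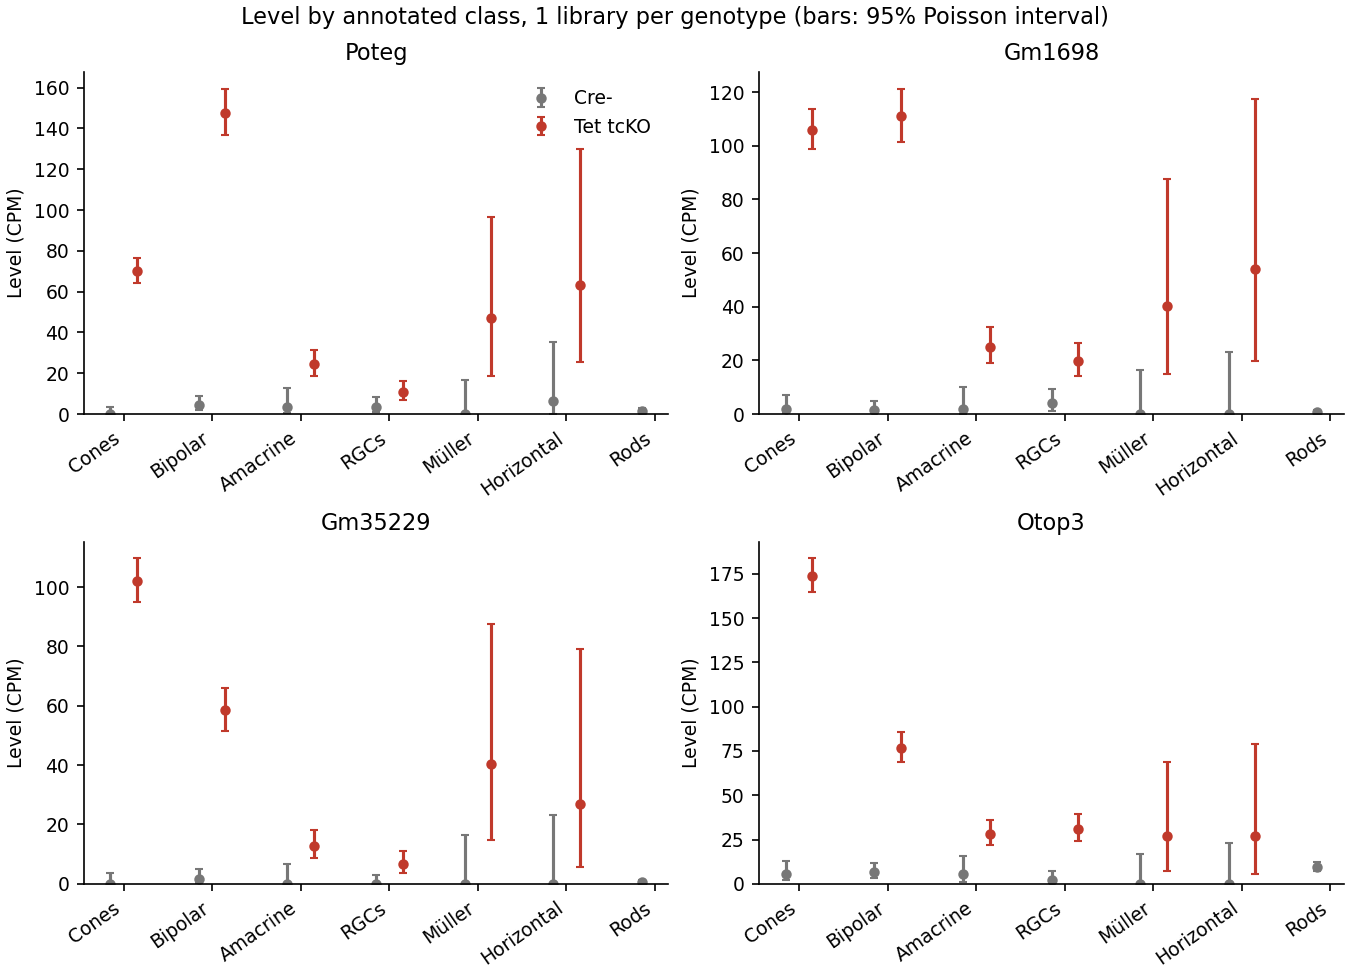
Level (CPM) of each gene by annotated class in Cre- (grey) and Tet tcKO (red), with 95% Poisson intervals of counting error and 1 library per genotype. Tet tcKO levels of Poteg reach 147.8 CPM in bipolar-annotated nuclei, of which 1220 of 1649 lay in clusters that went against the name, and those of Otop3 reach 174 CPM in cone-annotated nuclei, while Cre- levels of all 4 genes lie near 0. The 6 rod-annotated nuclei of Tet tcKO are not drawn.

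The few Cre- transcripts lay under several class names. Of the 265 cone-annotated Cre- nuclei, nearly all in cluster 11, which went against the name, 0 had a Poteg or a Gm35229 UMI, which at 3 counts allows a share of up to 1.13% of nuclei with a UMI, and 2 had Gm1698 and 6 had Otop3. Poteg had 8 UMIs in 674 bipolar and 10 in 5214 rod nuclei. Rods of Cre- held 62 of the 86 Otop3 UMIs, at 9.47 CPM (7.26 to 12.1), a level whose interval overlapped that of the other Cre- classes with an Otop3 UMI except RGCs at 2.44 CPM (0.503 to 7.13). Rods and cones together had 1.32 CPM (0.633 to 2.43) of Poteg, 0.792 CPM (0.291 to 1.72) of Gm1698, 0.396 CPM (0.0817 to 1.16) of Gm35229 and 8.98 CPM (6.97 to 11.4) of Otop3 in Cre-. The same pool in Tet tcKO had 69.9 CPM (64.0 to 76.2), 106 CPM (98.7 to 114), 102 CPM (94.9 to 109.6) and 174 CPM (165 to 184). This pool avoids the rod and cone names but holds many of the nuclei on which the genes were chosen, so its direction was fixed by the choice. With the class shares of Cre- applied to both libraries, the log2 ratios over all nuclei were 5.07, 6.14, 7.24 and 4.14 in the same order.

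Amacrine cells and RGCs, with no cluster against its name, carried the genes at lower levels. Their nuclei lay in different clusters in each library. Of 403 amacrine nuclei in Cre-, 256 were in cluster 27, and of 567 RGCs 394 in cluster 8, while clusters 12, 24 and 23 held 357, 321 and 222 of 1043 amacrine nuclei in Tet tcKO and clusters 31, 15 and 2 held 273, 217 and 185 of 704 RGCs. These nuclei were also among those on which the genes were chosen, so their low Cre- counts followed from the choice. Over both classes, Poteg went from 6 UMIs (3.35 CPM, 1.23 to 7.30) in Cre- to 80 UMIs (17.9 CPM, 14.2 to 22.2) in Tet tcKO. Gm1698 went from 6 to 101 UMIs (22.6 CPM, 18.4 to 27.4) and Otop3 from 6 to 132 UMIs (29.5 CPM, 24.7 to 34.98). Gm35229 had 0 UMIs in 970 Cre- nuclei, which at 3 counts allows up to 1.68 CPM, and 44 UMIs (9.83 CPM, 7.14 to 13.2) in 1747 Tet tcKO nuclei. With 3 counts in place of 0, that was 5.86-fold higher (log2 ratio 2.55, 0.91 to 4.88). On the same count, the interval of this ratio included 0 in amacrine cells alone (from -0.43) and in RGCs alone (from -0.41). In Tet tcKO, cone-annotated nuclei exceeded these inner retinal neurons 3.91-fold for Poteg, 4.70-fold for Gm1698, 10.4-fold for Gm35229 and 5.90-fold for Otop3. On the log2 scale these were 1.97 (1.63 to 2.33), 2.23 (1.93 to 2.55), 3.38 (2.94 to 3.85) and 2.56 (2.30 to 2.83). Without amacrine cluster 23, left out after its values were seen, they were 2.59, 2.62, 3.85 and 2.62.

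Cone transcripts were also counted in these inner retinal nuclei of Tet tcKO. All 9 cone markers were detected in every amacrine and RGC cluster, with summed levels of 1193 to 2852 CPM in amacrine and 909 to 1412 CPM in RGC clusters, against 5476 to 7764 CPM in cone-annotated clusters. In amacrine clusters 12, 23 and 24 they exceeded the summed amacrine markers, which stood at 1200.1, 1249 and 1296.5 CPM. This was not particular to cone markers. In the same clusters rod markers summed to 1051, 1983 and 1477 CPM and bipolar markers to 1413, 1981 and 1205 CPM. Cone-annotated clusters also held 4522 to 7693 CPM of rod markers. Per 1000 UMIs of 5 cone genes (Arr3, Opn1sw, Gnat2, Gngt2 and Pde6c), Poteg gave 18.9 UMIs (17.3 to 20.6) in cone-annotated, 63.5 (58.6 to 68.7) in bipolar-annotated and 31.0 (24.5 to 38.7) in amacrine and RGC nuclei. Gm1698 gave 28.6 (26.6 to 30.7), 47.7 (43.5 to 52.3) and 39.1 (31.7 to 47.7) in the same order. For both chromosome 8 genes the ratio was lowest in cone-annotated nuclei as a whole, although that of Poteg ran from 13.2 to 44.4 over the cone-annotated clusters. Amacrine cluster 23 had 63.7 for Poteg and 61.8 for Gm1698. The other amacrine and RGC clusters ran from 11.8 to 35.7 for Poteg and from 22.5 to 53.1 for Gm1698, on both sides of the cone values. Gm35229 gave 27.5 (25.6 to 29.6), 25.1 (22.1 to 28.4) and 17.0 (12.4 to 22.9), lowest in amacrine and RGC nuclei. Otop3 gave 46.9 (44.3 to 49.6), 33.1 (29.6 to 36.8) and 51.1 (42.6 to 60.9), so its ratio in inner retinal nuclei overlapped that in cones. The part of cone transcripts in the inner retinal counts of these genes was not tested.

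**Figure D3:**
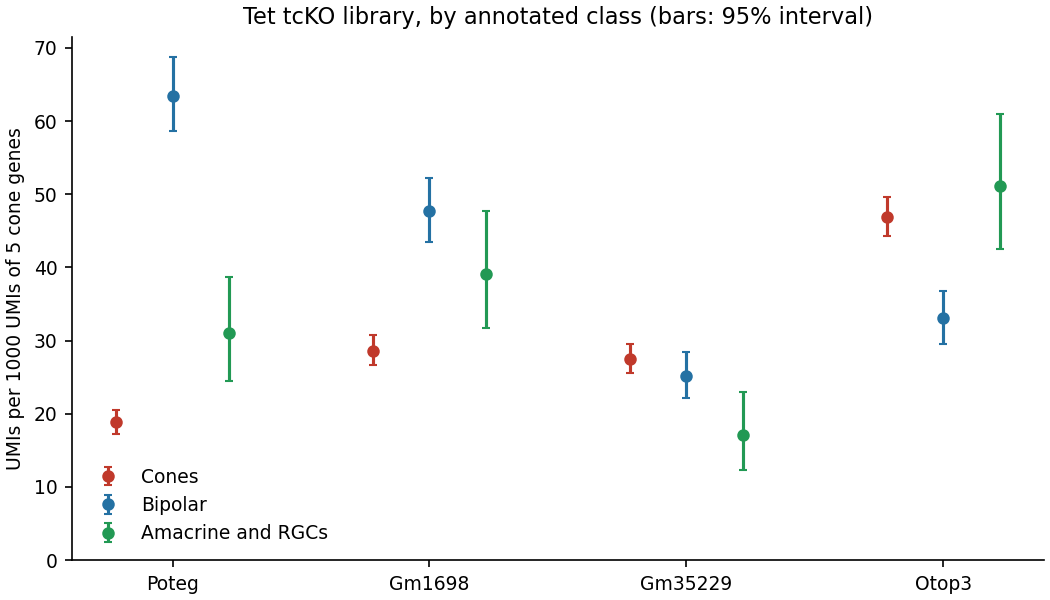
UMIs of each gene per 1000 UMIs of 5 cone genes in 3 annotated groups of Tet tcKO nuclei, with 95% intervals of counting error. Poteg ranges from 18.9 in cone-annotated to 63.5 in bipolar-annotated nuclei, whereas Gm35229 stays between 17.0 and 27.5.

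The deposited clusters resolve the annotated classes further. They were made from all genes, so levels between clusters are a description. Among the 6 bipolar-annotated clusters with 50 or more Tet tcKO nuclei, cluster 22 (214 nuclei) was highest for every member. It had 330.2 CPM (275.7 to 392.4) of Poteg, 274 CPM (224 to 331) of Gm1698, 154 CPM (117 to 198) of Gm35229 and 179 CPM (139.7 to 226) of Otop3. Cluster 42 (148 nuclei) was lowest, though its intervals overlapped those of cluster 43 for all 4 genes, with 57.1 CPM (30.4 to 97.7), 43.96 CPM (21.1 to 80.8), 26.4 CPM (9.68 to 57.4) and 57.1 CPM (30.4 to 97.7). The remaining bipolar clusters had 92.3 to 184 CPM of Poteg. Cone and bipolar markers took opposite ends in the same 2 clusters. The 9 cone markers summed to 13755 CPM in cluster 22, above every cone-annotated cluster, and to 3556 CPM in cluster 42. The 10 bipolar markers summed to 1380 CPM in cluster 22, the lowest of the 6, and to 8044 CPM in cluster 42, the highest.

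Single genes gave the same picture. Arr3 stood at 3553 CPM in cluster 22 and 734 CPM in cluster 42, whereas Trpm1, the transduction channel of ON bipolar cells, stood at 138 and 1521 CPM. Across the 6 clusters, levels of Poteg and Arr3 on the log2(CPM + 10) scale had a Pearson r of 0.98 and a Spearman rho of 1. Of bipolar genes, Grik1, a glutamate receptor of OFF bipolar cells, had r of -0.98 and rho of -0.83 with Poteg, Prkca r of -0.86 and rho of -0.66, and Trpm1 r of -0.83 and rho of -0.60. The points are 6 clusters of 1 library and share its depth and processing. Per 1000 cone gene UMIs, Poteg lay between 47.97 and 69.1 in all 6 bipolar-annotated clusters, with overlapping intervals. Cluster 22 thus had the most Poteg, the most cone marker and the least bipolar marker transcript of the 6.

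Cone-annotated clusters varied less, and Poteg did not follow the other genes there. Over 8 clusters, Poteg ranged from 57.4 CPM (42.3 to 76.0) in cluster 55 to 91.7 CPM (71.4 to 116) in cluster 53. These intervals overlapped, but that of cluster 48, at 58.9 CPM (49.0 to 70.1), lay below cluster 53. Gm1698 ranged from 65.9 CPM (44.1 to 94.6) in cluster 52 to 128 CPM (86.4 to 183) in cluster 54, and cluster 48, at 114 CPM (100.5 to 129.8), lay above cluster 52. Gm35229 ranged from 45.6 CPM (29.2 to 67.9) in cluster 46 to 148 CPM (123 to 177) in cluster 55, and Otop3 from 77.3 CPM (53.5 to 108) in cluster 52 to 208 CPM (189 to 228) in cluster 48. For these last 2 genes the lowest and the highest cluster were separated. Across these 8 clusters, Gm1698 and Otop3 had a Pearson r of 0.93, Gm1698 and Gm35229 0.83, and Poteg and Otop3 -0.65. Poteg and Gm1698, the genes of 1 locus, had r of -0.42 here and 0.99 across the 6 bipolar-annotated clusters. With marker genes, too, Poteg had the opposite sign in the 8 cone-annotated clusters. Its r there was 0.79 with Grik1, 0.78 with Prkca, 0.67 with Trpm1, -0.51 with Arr3 and -0.64 with Gnat2. Over all 22 clusters these were 0.34, 0.64, 0.72, 0.87 and 0.73.

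**Figure D4:**
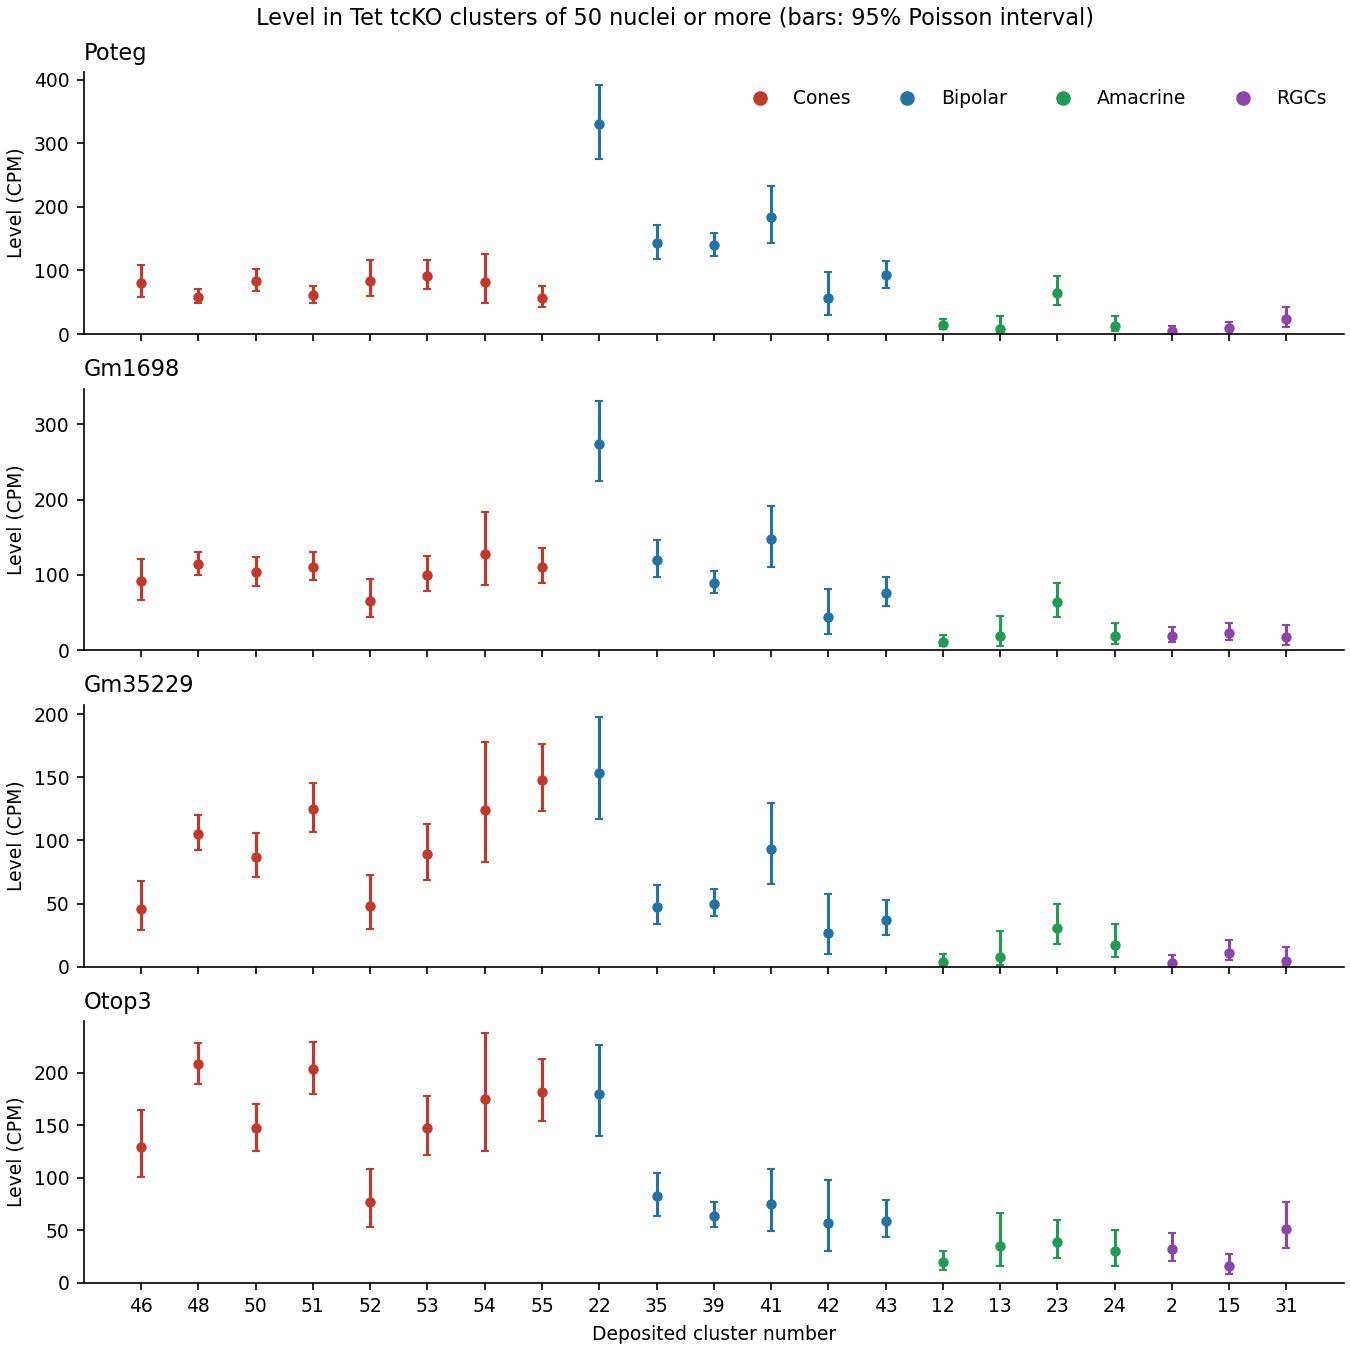
Level (CPM) in each deposited cluster with 50 or more Tet tcKO nuclei, coloured by annotated class, with 95% Poisson intervals of counting error. Cluster 22 stands highest for Poteg at 330.2 CPM and for Gm1698 at 274 CPM, Otop3 is highest in cone-annotated cluster 48 at 208 CPM, and amacrine cluster 23 stands above the other amacrine clusters for Poteg at 65.3 CPM.

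Amacrine cluster 23 (222 nuclei) carried 34 of the 57 amacrine Poteg UMIs. Its level was 65.3 CPM (45.2 to 91.3), against 7.75 to 14.1 CPM in the other amacrine clusters. Gm1698 there was 63.4 CPM (43.7 to 89.1), against 11.3 to 19.4 CPM. Otop3, at 38.4 CPM (23.5 to 59.4), was not separated from its level of 34.9 CPM (15.9 to 66.2) in cluster 13. Cluster 23 also had the highest summed cone markers of the amacrine clusters, at 2852 CPM, and the highest rod and bipolar markers, at 1983 and 1981 CPM. In Müller glia, cluster 30 (46 nuclei) had 0 UMIs of Poteg and Gm1698 and cluster 37 (56 nuclei) had 7 and 6. Cluster 37 also held cone markers, at a summed 5199.8 CPM.

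Detection of the genes in the same nuclei was compared next. In cone-annotated Tet tcKO nuclei, 59.6% (57.9 to 61.3) had a UMI of at least 1 of the 4 genes, and 20 nuclei had all 4. Nuclei with a member were deeper, at a median of 2007 UMIs against 1476.5, while the authors' mitochondrial percent was 7.01 and 6.96. In quartiles of depth, the share of nuclei with Otop3 went from 21.2% to 52.6%, whereas its level was between 155 and 187 CPM. Shares were therefore also taken after thinning each nucleus to 1000 UMIs. Thinned, 16.4% of cone-annotated nuclei had Otop3, 9.89% Gm35229, 9.77% Gm1698 and 6.85% Poteg, against 32.0%, 20.4%, 20.4% and 14.6% unthinned.

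Of the 6 pairs in bipolar-annotated nuclei, Poteg and Gm1698 had the widest gap in detection. Unthinned, Gm1698 was found in 43.4% (38.7 to 48.2) of nuclei with Poteg and in 13.7% (11.8 to 15.8) of those without. Thinned to 1000 UMIs, these shares were 26.3% (20.5 to 32.8) and 8.40% (7.01 to 9.97), and thinned to 500 UMIs 14.2% (8.32 to 21.97) and 4.95% (3.92 to 6.15). In cone-annotated nuclei thinned to 1000 UMIs they were 13.6% (9.27 to 18.9) and 9.49% (8.45 to 10.6), whose intervals overlapped. For Poteg and Otop3 in bipolar-annotated nuclei the thinned shares were 13.9% (9.49 to 19.3) and 7.55% (6.23 to 9.05). For Gm1698 and Gm35229 they were 5.17% (2.39 to 9.59) and 5.44% (4.33 to 6.74). These shares were not divided by cluster, and reads of the overlapping Gm45861 were not separated.

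The neighbours of the 3 loci were examined for a shared difference. Of 292 annotated genes whose body lay within 1000000 bases of a member, 138 were in the gene table and 52 reached 10 CPM in a library. Their median log2 ratio was 0.11, against 0.15 for all genes. Of the 52, 1 was at least 2-fold higher and 1 at least 2-fold lower, where 3.18% and 2.48% of all genes were. Near Poteg and Gm1698, the nicotinic receptor genes Chrna6, 33724 bases away, and Chrnb3 had log2 ratios of 0.48 (0.24 to 0.73) and 0.71 (0.55 to 0.88). The 5 neighbours there ranged from 0.21 to 0.78, with a median of 0.48. The interval of the lowest, Adgra2 (-0.05 to 0.47), included 0, and scaling by the trimmed mean of M values lowers each ratio by 0.10. The 10 near Gm35229 ranged from -0.79 for Zfp36l2 to 0.73 for Plekhh2, with a median of 0.17. No neighbour of these 2 loci at 10 CPM or more reached a 2-fold difference. Below that minimum, and named after their values were seen, Gm49969 near Gm35229 had 22 and 104 UMIs (log2 ratio 1.71, 1.04 to 2.45), C430042M11Rik and Gm19696 there had 20 and 7 and 32 and 20 UMIs, and Gm45370 near Poteg had 15 and 0.

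Otop3 lay among 37 neighbours with a median of -0.04. Hid1, whose body came within 774 bases of Otop3, had 46.0 and 44.9 CPM (log2 ratio -0.04, -0.20 to 0.13). The start of Hid1 lay 33.0 kb from that of Otop3. Otop2, the paralogue 2426 bases away, had 19 and 34 UMIs (log2 ratio 0.31, -0.54 to 1.20), and Otop1 had 0 and 2. At 10 CPM or more, the higher neighbour was Kif19a, a kinesin gene 543992 bases away. It stood at 51.1 CPM in Tet tcKO against 8.34 CPM in Cre- (log2 ratio 2.61, 2.31 to 2.93). Kif19a also had its Tet tcKO counts mainly under the cone (66.9 CPM) and bipolar (63.0 CPM) names, with 19.2 CPM in amacrine cells and 7.97 CPM in RGCs. The lower was Grin2c, a glutamate receptor subunit gene, at -1.08 (-1.42 to -0.73). Some neighbours of Otop3 below 10 CPM, named after their values were seen, also differed. Btbd17 had 6 and 44 UMIs (log2 ratio 2.35, 1.11 to 3.87) and Gprc5c 3 and 25 (2.53, 0.82 to 4.90). Cd300c2 had 1 and 12 UMIs (3.06, 0.30 to 8.48). In the other direction, Unc13d had 78 and 59 UMIs (-0.93, -1.44 to -0.42) and Gpr142 47 and 39 (-0.80, -1.45 to -0.15).

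**Figure D5:**
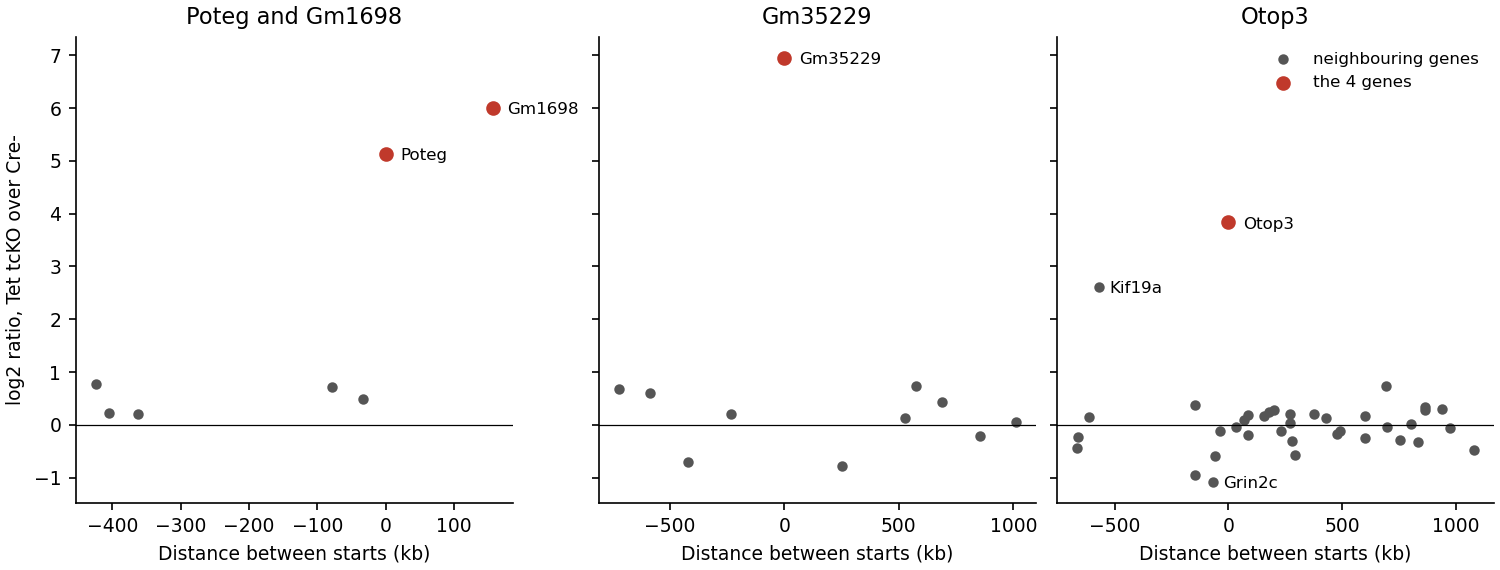
Log2 ratio of Tet tcKO over Cre- for genes at 10 CPM or more around each locus (grey) and for the 4 genes (red), by the distance between gene starts in kb. Most neighbours lie between -1 and 1, with Kif19a at 2.61 and Grin2c at -1.08 near Otop3.

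Gene lists related to the members were counted in the same way. Of 8 proton and acid-sensing channel genes, 5 reached 10 CPM, 2 were at least 2-fold higher (Otop3 and Asic4) and 1 lower (Asic3), where 3.18% and 2.48% of all genes were. Otop3 counts here by its choice, which leaves 1 higher and 1 lower of the others. Asic4 went from 46.4 to 121.8 CPM (log2 ratio 1.39, 1.25 to 1.53), and Asic3 from 90.9 to 43.9 CPM (log2 ratio -1.05, -1.19 to -0.91). Asic1 and Asic2 had log2 ratios of 0.20 and 0.29. The list's median was 0.29, against 0.15 for all genes. Of 26 germline genes, 3 reached 10 CPM and 0 were 2-fold higher or lower, with a median log2 ratio of 0.22. The meiotic bromodomain gene Brdt was nearest, at 21.5 and 42.3 CPM (log2 ratio 0.98, 0.77 to 1.19). Tdrkh and Piwil2, both of the piRNA pathway, had 0.22 and -0.36. Among those below 10 CPM, the interval lay above 0 for Tex11, with 59 and 132 UMIs (log2 ratio 0.63, 0.18 to 1.10), and Tex15, with 60 and 129 UMIs (0.58, 0.12 to 1.04). It lay below 0 for Ddx4, with 52 and 26 UMIs (-1.53, -2.27 to -0.82). Dazl had 5 and 7 UMIs and Rpl10l 0 in both libraries.

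Genes with the most similar pattern were sought across 47 units, each a cluster of 50 or more nuclei in 1 library, by Pearson correlation of log2(CPM + 10) over 11157 other genes. The units include both libraries, so the difference that chose the members is part of r. Cltb, a clathrin light chain gene, was among the 3 most similar genes outside the set for every member, at 0.93 for Poteg, 0.96 for Gm1698, 0.97 for Gm35229 and 0.94 for Otop3. The first gene was Myocd (0.94) for Poteg, Nfkb1 (0.97) for Gm1698, the nicotinic subunit gene Chrnb4 (0.98) for Gm35229 and the fatty acid binding protein gene Fabp7 (0.94) for Otop3. The remaining places went to Robo3, an axon guidance receptor gene, for Gm1698 (0.95) and Otop3 (0.93), to Nfkb1 for Poteg (0.93) and to Ccdc136 for Gm35229 (0.94). Gm1698 was the gene most similar to Poteg of all, at 0.95.

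Across the 22 Tet tcKO units alone, an alternative added after the data were seen, several photoreceptor genes took these places. The cone channel gene Cngb3 came first for Poteg (0.97), followed by Bbs9 and Igsf11. Podxl (0.98), Rpgrip1 and Tulp1 were nearest to Gm1698, and Gckr (0.97), Arr3 and Smug1 to Gm35229. Aipl1 (0.96), Rgs9bp and Rbp3, all expressed in photoreceptors, were nearest to Otop3. Between members, r in these units was 0.91 for Poteg and Gm1698, 0.94 for Gm1698 and Gm35229, and 0.60 for Poteg and Otop3. The units share 1 library, and clusters of 1 class are not independent of each other.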

How the data were processed

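Whole-retina nuclei were captured with a PIPseq 3′ kit. Per the labels, reads were processed by the authors with pipseeker against GRCm39. According to the study's methods, CellBender was run to reduce ambient RNA at a cell probability of 0.99, nuclei were kept between 500 and 10000 transcripts and below 20% mitochondrial transcripts, and clusters and cell types were assigned in Monocle3. The deposited matrices hold UMI counts per gene and nucleus, and the deposited cell tables give each nucleus's transcript count, the authors' mitochondrial percent and a size factor, a ratio that was not used. The gene table holds a mean signal per genotype, which equalled the mean of deposited counts per 10000, and a count of nuclei. The number of unused columns of per-sample values was 0.

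UMIs were summed per population and library with pandas 2.3.3, scipy 1.17.1 and numpy 2.4.6 (Python 3.11.15). Intervals at 95% are exact Poisson for counts, exact conditional for ratios and Clopper-Pearson for shares. In ratios, 3 counts stood in for 0, and no ratio was formed from 2 counts of 3 or fewer. With 1 library per genotype no test was made. Nuclei were thinned to 500 or 1000 UMIs by drawing without replacement, and no doublet caller was run. Calls were 2-fold differences at 10 CPM or more. In the marker check, genes at 50 CPM or more in a cluster were ranked by fold over all other nuclei. Of 32227 gene table identifiers, 31681 were found in GENCODE vM39, which gave gene coordinates, and promoter windows were read from GRCm39. The steps were tested on simulated data.

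Named genes were the members, overlapping genes, neighbours within 1000000 bases at 10 CPM, list genes, marker genes, and the 3 genes most correlated with each member. Members and lists were chosen with earlier results of these data known. Potegl, the class levels of Kif19a and the reference genes by cluster were chosen after their values were seen. Alternatives covered scaling, low-count minimum, counting each gene once per nucleus, depth, deepest nuclei and class shares.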

Additional observations from a re-analysis of the deposited data

Results flagged for a closer look

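The deposited gene table counts the nuclei with each gene, a column used in no comparison above, and it counts more than the 14123 nuclei of both matrices hold. It lists 1206 nuclei for Poteg, 191 more than the 1015 in the matrices. For Gm1698 it lists 1298, which is 173 more than 1125, for Gm35229 1068, which is 124 more than 944, and for Otop3 1732, which is 186 more than 1546. The ratio of table to matrix nuclei was 1.19 for Poteg, 1.15 for Gm1698, 1.13 for Gm35229 and 1.12 for Otop3, against a median of 1.15 over 14015 genes listed in 100 or more nuclei. The excess was thus of the size found for other genes. The genotype of the additional nuclei is not recorded in that column.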

How the results depend on the processing

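Over 48 log2 values of the members under an alternative, 44 lay within the counting interval of the reported value, 4 moved outside it, and 0 changed sign. Without amacrine cluster 23, an alternative chosen after seeing the data, the log2 ratio of cone over amacrine and RGC nuclei was 2.59 for Poteg, 2.62 for Gm1698 and 3.85 for Gm35229, since that cluster held these genes at higher levels than the other amacrine clusters. Counting a gene at most once in a nucleus gave 1.99 for Otop3, and the cause was not tested. Genes at least 2-fold higher numbered 1049 at a minimum of 1 CPM and 125 at 50 CPM, as more or fewer genes enter. No paired analysis was possible because each genotype had 1 library and no replicate could be left out. Depth limits the Cre- values, since 6 UMIs of Gm35229 in 11510585 bound its ratio only between 5.82 and 8.40.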

Other observations

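Potegl, a gene of the same ankyrin repeat family as Poteg and named Ankrd68 in GENCODE vM39, was chosen after its values were seen. Its 222 Cre- and 453 Tet tcKO UMIs correspond to 19.3 and 27.3 CPM (log2 ratio 0.50, 0.27 to 0.74). In Tet tcKO it stood at 26.7 CPM (23.2 to 30.7) in cone-annotated, 34.2 CPM (29.0 to 40.1) in bipolar-annotated, 25.2 CPM (19.2 to 32.5) in amacrine and 19.7 CPM (14.2 to 26.6) in RGC nuclei. In Cre- rods it stood at 20.3 CPM (17.0 to 24.1). The bipolar-annotated and RGC intervals of Potegl did not overlap. The sources used here do not say how reads shared between the related genes were assigned.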
